A study of Saccharomyces cerevisiae with 6 samples.

Results

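The transcripts described here encode the respiratory chain and the ATP synthase of Saccharomyces cerevisiae. The 42 genes were chosen by name as nuclear-encoded subunits of the NADH dehydrogenases, complexes II, III and IV, cytochrome c and the ATP synthase with its regulators. Of the 42, 40 were measured among 5539 named genes, each by 2 spots. No spot was named for ATP18, a membrane subunit of the ATP synthase, or STF1, a small regulator of it, and both were not analysed here. The 7 subunits encoded in mitochondrial DNA (COB, COX1, COX2, COX3, ATP6, ATP8 and OLI1) were likewise not analysed here.

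A mutant of MET4, called a deletion mutant in the series title, was compared directly with wild-type cells, both after 1 hour in arsenite, As(III), at 0.2 mM. Met4 is the transcriptional activator of sulfate assimilation and sulfur amino acid synthesis. All 6 two-colour arrays hybridised total RNA of the mutant in Cy3 against wild type in Cy5, as 1 group of 6 replicates. The labels give neither the strain background nor the deleted part of the gene, nor do they say whether each array had its own culture. The p-values below therefore rest on array-to-array spread alone, part of which may be technical. Both channels came from arsenite-exposed cells, so a difference present without arsenite cannot be told apart from one that arose in it.

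In yeast, electrons from NADH enter the chain through single-protein NADH dehydrogenases in place of a proton-pumping complex I, and from succinate through complex II. They pass through ubiquinone to complex III, then through cytochrome c to complex IV, which reduces oxygen, and the proton gradient built by complexes III and IV drives the ATP synthase. In this organism many of these genes are repressed by glucose and activated by heme and oxygen through the Hap1 and Hap2/3/4/5 transcription factors.

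All values are log2 ratios centred on the median of their array and averaged over the spots of a gene. Each value is thus relative to the middle of all spots. Neither the log base nor the numerator is stated in the sources used here. Mutant over wild type is called the likely direction from the order in the sample titles and from MET4 (YNL103W), which lay below the array median on 6 of 6 arrays at -0.59 ± 0.25 (SD, n = 6; limma, adjusted p = 0.0112; p = 0.0312 by exact permutation of signs, two-sided). If the base is 2, this mean puts MET4 in the mutant at 66.4% of wild type, so the spots did not show an absent transcript. As deposited, without centring, MET4 missed the threshold (limma, adjusted p = 0.600) and stood at 0.59 on array 3. A ratio of Cy5 over Cy3 would have wild type as the numerator. In that case every higher and lower below would turn round, including the shares of genes called. If the values were natural logarithms, each unit would be 1.44 log2 units. The arrays had no dye swap, so a dye bias of a gene cannot be told apart from a difference between the strains. Nor can fewer cells with a transcript be told apart from less transcript per cell.

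Array 2 stood apart, with a mean r across genes of 0.29 with the other arrays, against 0.37 to 0.51 for the rest. Arrays 3 and 5 were the most alike (r = 0.76), followed by arrays 1 and 3 (0.62) and arrays 4 and 6 (0.61). The median over all genes of the mean ratio was 0.0053 after centring and 0.12 as deposited.

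In the likely direction, transcripts of the respiratory chain and the ATP synthase were higher in the mutant for NDE1, SDH1, SDH2, QCR7, CYC1, COX5A, COX8, ATP1 and ATP4. These 9 of 40 measured members (22.5%) passed as higher, against 9.41% of all genes (limma, adjusted p under 0.05). No member (0) passed as lower, against 5.69% of all genes. The remaining 31 did not pass. The median of the 40 member means was 0.31, beside 0.0053 for all genes tested. Means ran from -0.081 for SDH4 to 0.95 for QCR7, and 35 of 40 were above 0, beside 2810 of all 5539 genes. The same sign on all 6 arrays was seen for 9 members, all above 0 (22.5%), against 9.89% of all genes above and 8.18% below the array median on all 6 arrays. Of the called members 6 were among these 9.

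The number called depended on single arrays and on centring. As deposited, 5 members passed (NDE1, SDH1, SDH2, QCR7 and CYC1), where 3.38% of all genes passed as higher. Without array 2 the count was 15, with 663 of all 5539 genes higher, and without array 3 or array 6 it was 5, against 5.25% and 5.29% of all genes. When arrays 3 and 5, and arrays 4 and 6, were averaged before the fit, an alternative chosen after seeing the data, NDE1 and CYC1 passed, beside 3.66% of all genes. NDE1, SDH1, QCR7 and CYC1 passed in every alternative planned, which includes leaving out each array and the values as deposited.

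**Figure D1:**
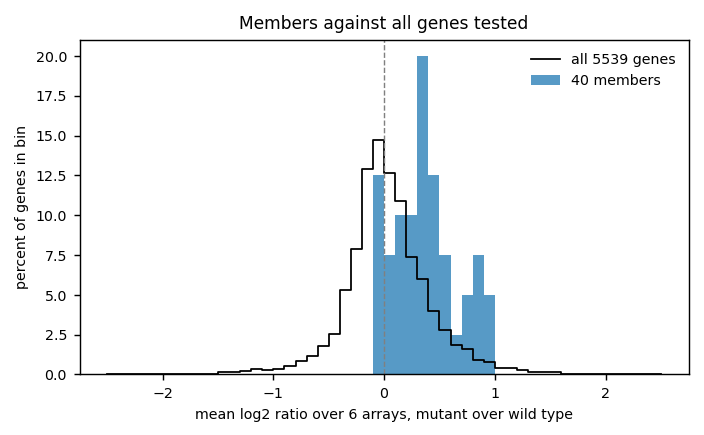
Share of genes (percent, vertical axis) by mean log2 ratio of mutant over wild type over 6 arrays (horizontal axis, bins of 0.1), for the 40 members (blue bars) and for all 5539 genes (black line). The members lie between -0.081 and 0.95 with a median of 0.31, to the right of the median of 0.0053 for all genes.

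**Figure D2:**
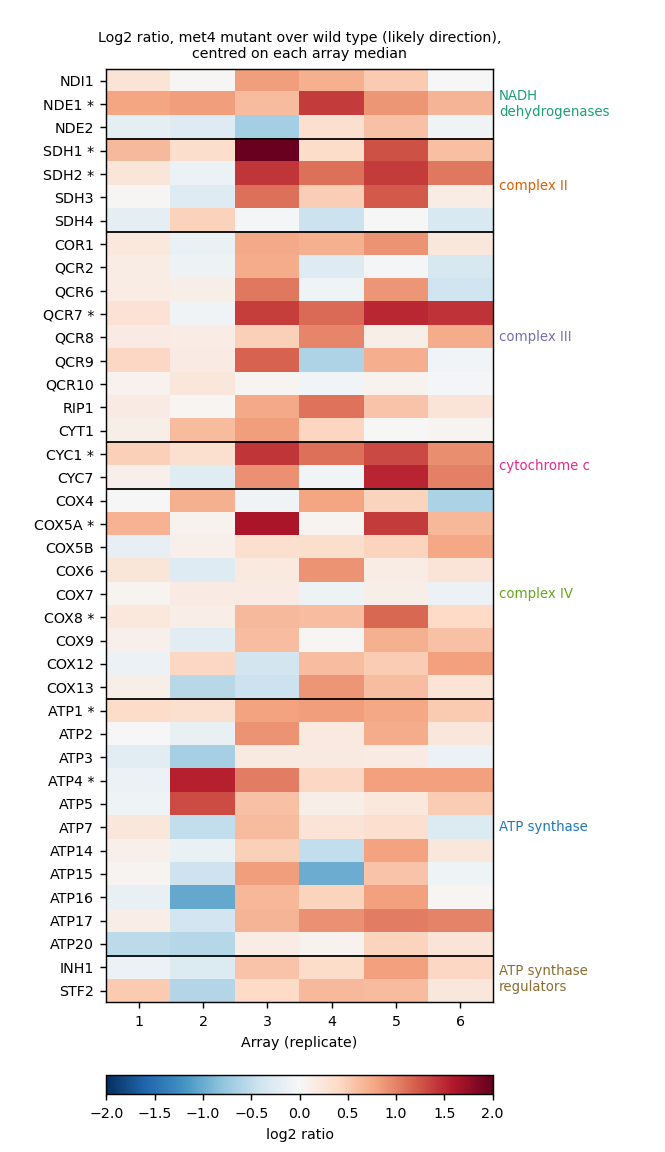
Centred log2 ratio of each member (rows, grouped by complex) on arrays 1 to 6 (columns), red for higher and blue for lower in the mutant, on a colour scale from -2 to 2. Asterisks mark the 9 members that passed the threshold. Arrays 3 and 5 have 35 and 38 of 40 members above 0, and array 2 has 20.

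Of the 3 NADH dehydrogenase genes, NDE1 rose and NDI1 and NDE2 did not pass, where 9.41% of all genes rose. NDE1 (YMR145C), the external enzyme that oxidises cytosolic NADH at the outer face of the inner membrane, stood at 0.80, 0.83, 0.63, 1.39, 0.88 and 0.67 on arrays 1 to 6. It was above the array median on every array and its lowest value was 0.63. Its mean of 0.87 ± 0.27 (SD, n = 6; limma, adjusted p = 0.00167) corresponds to a 1.83-fold ratio if the base is 2. NDE2 (YDL085W), its paralog with the same activity, stood at -0.20, -0.26, -0.68, 0.33, 0.58 and -0.069. It was below the array median on 4 arrays and above it on 2, with a mean of -0.051 ± 0.45 (95% interval -0.40 to 0.30). NDI1 (YML120C), the internal enzyme that oxidises matrix NADH, ranged from 0.0013 on array 6 to 0.84 on array 3. It was above 0 on 6 of 6 arrays, and its mean of 0.40 ± 0.35 missed the threshold (limma, adjusted p = 0.0897, with 0.0444 with centring by print-order run).

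NDE1 exceeded NDE2 on 6 of 6 arrays, by 0.30 on array 5 to 1.31 on array 3. The mean difference was 0.92 ± 0.35 (SD, n = 6; p = 0.0312 by exact two-sided permutation of signs, the lowest value possible with 6 arrays, and 0.0938 after Benjamini-Hochberg adjustment over 3 isoform pairs). With centring by print-order run the adjusted value was 0.0469. Signal shared between such paralogs cannot be told apart, since no probe sequences were used here.

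Complex II, succinate dehydrogenase, links the citric acid cycle to the chain, and the genes of both its catalytic subunits rose. These were 2 of its 4 genes, where 9.41% of all genes rose. SDH1 (YKL148C), the flavoprotein, stood at 0.64, 0.36, 1.97, 0.36, 1.27 and 0.61 on arrays 1 to 6. It was above 0 on every array, with the highest single value of any member on array 3. Its mean was 0.87 ± 0.64 (limma, adjusted p = 0.0129). SDH2 (YLL041C), the iron-sulfur subunit, stood at 0.24, -0.11, 1.42, 1.10, 1.40 and 1.05. Arrays 3 to 6 were all above 1 and array 2 was below 0. Its mean was 0.85 ± 0.64 (limma, adjusted p = 0.0143), a call lost without array 3, 5 or 6 (adjusted p = 0.0537, 0.0519 and 0.0569).

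The membrane anchors of complex II did not pass. SDH3 (YKL141W) stood at 0.46 ± 0.60, with 1.10 and 1.23 on arrays 3 and 5 and 0.49 or less on the others (limma, adjusted p = 0.137). SDH4 (YDR178W) stood at -0.081 ± 0.31, with array 2 as its highest at 0.46 and array 4 as its lowest at -0.43. Its 95% interval of -0.39 to 0.22 lay below the interval of 0.43 to 1.30 for SDH1, but the difference between them was not tested. The anchor paralogs SHH3 and SHH4, outside the 42 genes, had means of 0.27 and 0.091 and did not pass.

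Complex III, the cytochrome bc1 complex, had 9 members measured, all with means above 0. Of these 9, 1 rose, a share near the 9.41% of all genes. QCR7 (YDR529C), a small subunit needed for assembly of the complex, stood at 0.29, -0.078, 1.39, 1.13, 1.51 and 1.45 on arrays 1 to 6. Arrays 1 and 2 were the lowest and the other 4 lay above 1. Its mean of 0.95 ± 0.67, the highest of the members, is a 1.93-fold ratio if the base is 2 (limma, adjusted p = 0.0107).

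The electron-carrying subunits of complex III did not pass. RIP1 (YEL024W), the Rieske iron-sulfur protein, was above 0 on 6 of 6 arrays, from 0.037 on array 2 to 1.09 on array 4, with a mean of 0.48 ± 0.40 (limma, adjusted p = 0.0544). It passed with arrays scaled to the same spread, with quantile normalization, with centring by print-order run and without array 2. CYT1, cytochrome c1, stood at 0.34 ± 0.34 and was highest on arrays 2 and 3, at 0.63 and 0.83.

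Among the other subunits of complex III, none passed. The core subunit gene COR1, at -0.13 on array 2 and 0.21 or more on the others, stood at 0.44 ± 0.40 (limma, adjusted p = 0.0723, with 0.0259 without array 2 and 0.0476 with array weights) and QCR2, the other core subunit gene, at 0.029 ± 0.39, with 0.74 on array 3 and 0.15 or less elsewhere. QCR8 was above 0 on 6 of 6 arrays at 0.44 ± 0.36 (limma, adjusted p = 0.0649, with 0.0498 without array 2 and 0.0390 with centring by print-order run). QCR6, the acidic hinge subunit, and QCR9 stood at 0.29 ± 0.57 and 0.30 ± 0.63. Both were above 0.7 on arrays 3 and 5 and below 0 on arrays 4 and 6. QCR10, which had the lowest SD of the members, stayed between -0.060 and 0.22 on all 6 arrays, and its SD of 0.097 was at the 0.451th percentile of genes.

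**Figure D3:**
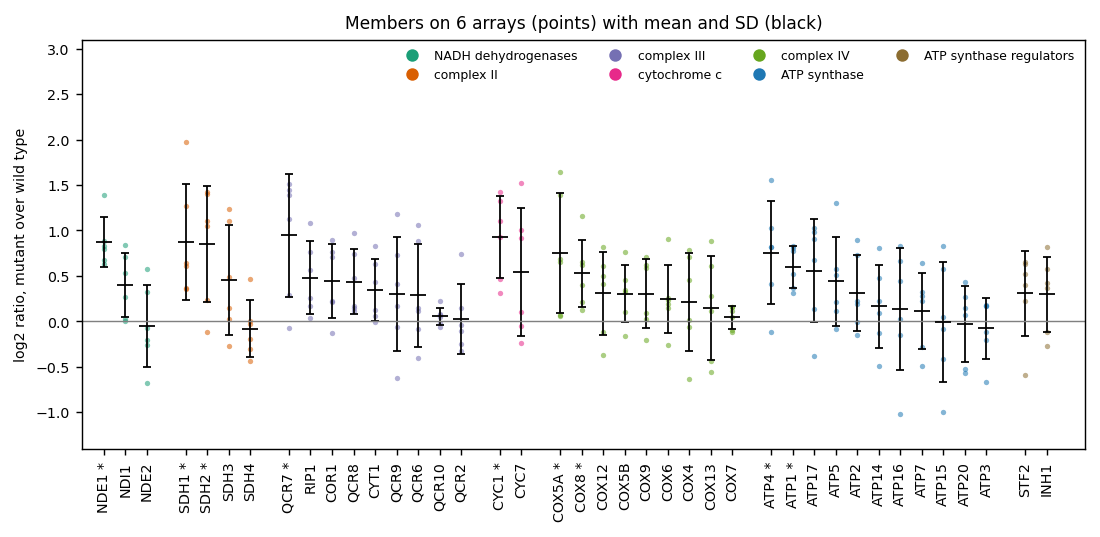
Log2 ratio of mutant over wild type (vertical axis) for each of the 40 members (horizontal axis, grouped by complex and ordered by mean within it). Coloured points are the 6 arrays, black marks the mean and bars the SD, and asterisks mark members past the threshold. QCR7 has the highest mean, 0.95, while QCR10 and COX7 have the narrowest spread.

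Cytochrome c carries electrons between complexes III and IV, and yeast has 2 isoforms. CYC1 (YJR048W), iso-1-cytochrome c, the main form in aerobic cells, stood at 0.47, 0.31, 1.43, 1.11, 1.32 and 0.92 on arrays 1 to 6. Every value was above 0.3, and arrays 1 and 2 were the lowest. Its mean was 0.93 ± 0.45 (limma, adjusted p = 0.00325), a 1.90-fold ratio if the base is 2. CYC7 (YEL039C), iso-2-cytochrome c, the form favoured at low oxygen, stood at 0.10, -0.24, 0.92, -0.052, 1.53 and 1.01. It was close to or below 0 on arrays 1, 2 and 4 and near or above 1 on arrays 3, 5 and 6, the largest SD of the members. Its mean of 0.54 ± 0.70 missed the threshold (limma, adjusted p = 0.111), and it passed without array 2 (0.0472). The difference CYC1 minus CYC7 was 0.38 ± 0.49, above 0 on 4 of 6 arrays (p = 0.125 by exact two-sided permutation of signs, 0.188 adjusted over the pairs; 95% interval -0.13 to 0.90).

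Complex IV, cytochrome c oxidase, had 9 nuclear-encoded members measured, and 2 rose, where 9.41% of all genes did. COX5A (YNL052W), the isoform of subunit 5 used in oxygen, stood at 0.69, 0.075, 1.64, 0.058, 1.39 and 0.66 on arrays 1 to 6. It was near 0 on arrays 2 and 4 and well above 1 on arrays 3 and 5. Its mean was 0.75 ± 0.66 (limma, adjusted p = 0.0284), and the call was lost as deposited and without array 1, 3, 5 or 6 (adjusted p between 0.0538 and 0.0948). COX8 (YLR395C), a small subunit, stood at 0.21, 0.13, 0.65, 0.62, 1.15 and 0.40, above 0 on every array. Its mean was 0.53 ± 0.37 (limma, adjusted p = 0.0338), and the call was lost as deposited, with centring by print-order run (0.116) and without array 3, 4, 5 or 6 (0.0718 to 0.114).

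COX5B (YIL111W), the isoform of subunit 5 favoured at low oxygen, stood at -0.16, 0.10, 0.32, 0.35, 0.45 and 0.77, with a mean of 0.31 ± 0.31 (limma, adjusted p = 0.168). The difference COX5A minus COX5B was 0.45 ± 0.67, above 0 on 3 of 6 arrays (p = 0.250 by exact two-sided permutation of signs, also 0.250 adjusted over the pairs; 95% interval -0.26 to 1.15). With centring by print-order run the difference was 0.52 and its adjusted p 0.0469. The other 6 subunit genes of complex IV had means from 0.045 for COX7 to 0.31 for COX12, and of these COX6 passed with centring by print-order run (limma, adjusted p = 0.0486). COX4, COX6, COX9, COX12 and COX13 each varied from below 0 on at least 1 array to above 0.7 on another. COX7 stayed between -0.12 and 0.16 (95% interval of the mean -0.21 to 0.30), with an SD of 0.13 at the 1.46th percentile of genes. COX4 had the widest gap between its 2 spots on an array of any member, 0.82, against a median of 0.22 for the members' widest gaps.

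**Figure D4:**
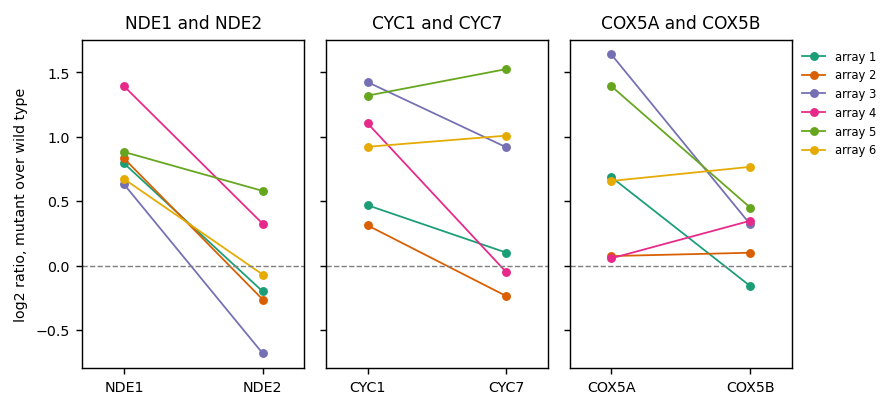
Log2 ratio of mutant over wild type (vertical axis) for the paralog pairs NDE1 and NDE2, CYC1 and CYC7, and COX5A and COX5B, with 1 line per array. NDE1 lies above NDE2 on 6 of 6 arrays, CYC1 above CYC7 on 4 and COX5A above COX5B on 3.

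The ATP synthase uses the proton gradient to make ATP in its catalytic F1 head, held to the membrane sector by a stator stalk. Of its 12 subunit genes among the 42 genes chosen, 11 were measured, and 2 rose, 1 from the head and 1 from the stalk. Over all genes 9.41% rose. ATP19 and TIM11, further nuclear subunit genes outside the 42, were not measured. ATP1 (YBL099W), the alpha subunit of the head, stood at 0.37, 0.32, 0.81, 0.83, 0.77 and 0.52 on arrays 1 to 6. Every value was above 0.3, and its SD was the lowest of the called members. Its mean was 0.60 ± 0.23 (limma, adjusted p = 0.00922), a call lost as deposited (0.216). ATP4 (YPL078C), subunit b of the stator, stood at -0.12, 1.56, 1.02, 0.42, 0.82 and 0.82. Array 2 was its highest and array 1 its lowest. Its mean was 0.75 ± 0.57 (limma, adjusted p = 0.0178), and the call was lost as deposited (0.0864), with centring by print-order run (0.0522), with array weights (0.0539) and without array 3 or 6 (0.0593 and 0.0605).

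The other subunit genes of the catalytic head had lower means than ATP1 and did not pass. ATP2, the beta subunit, stood at 0.31 ± 0.42, ATP3, the gamma subunit, at -0.078 ± 0.33, ATP15, the epsilon subunit, at -0.0062 ± 0.66 and ATP16, the delta subunit, at 0.13 ± 0.67. ATP15 reached 0.83 on array 3 and -0.99 on array 4, and ATP16 0.83 on array 5 and -1.02 on array 2. Of the stator genes, ATP5, which encodes the oligomycin sensitivity-conferring protein, stood at 0.44 ± 0.49. Like ATP4 it was highest on array 2, at 1.30, and below 0 on array 1 alone. ATP7 and ATP14, also of the stator, stood at 0.12 ± 0.42 and 0.16 ± 0.46, and both were below 0 on array 2.

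Of the membrane-sector genes, ATP17 (subunit f) was at 0.79 as the median over arrays, with -0.38 on array 2 and 0.67 or more on arrays 3 to 6. Its mean of 0.56 ± 0.57 missed the threshold (limma, adjusted p = 0.0628) and passed without array 2 (0.00902), with quantile normalization (0.0479) and with array weights (0.0464). ATP20 (subunit g), which takes part in dimerisation of the enzyme, stood at -0.029 ± 0.42. INH1, the inhibitor that blocks ATP hydrolysis, stood at 0.30 ± 0.41. STF2, described as a stabiliser of the inhibited enzyme, stood at 0.31 ± 0.47 and was below 0 on array 2 alone, at -0.59. Neither regulator passed (limma, adjusted p = 0.230 for INH1 and 0.242 for STF2), and STF2 passed without array 2 (0.0255).

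Set side by side, the complexes had overlapping levels. The median of the member means was 0.40 for the 3 NADH dehydrogenases, 0.65 for the 4 complex II genes, 0.34 for the 9 complex III genes and 0.74 for the 2 cytochrome c genes. It was 0.30 for the 9 complex IV genes, 0.16 for the 11 ATP synthase genes and 0.30 for its 2 regulators. The number called higher was 1, 2, 1, 1, 2, 2 and 0 in the same order, and none (0) was called lower in any. Over all genes 9.41% passed as higher and 5.69% as lower. No test of the difference between complexes was made, since the groups were chosen with the data known and are small. The 5 members with means below 0 were NDE2, SDH4, ATP3, ATP15 and ATP20.

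The level of the members differed between arrays. The median over the 40 members was 0.12, -0.025, 0.66, 0.39, 0.67 and 0.26 on arrays 1 to 6, and 29, 20, 35, 31, 38 and 29 of the 40 were above 0. Arrays 3 and 5 therefore carried the highest values, and on array 2 the members were split evenly around the array median. Over all genes the share above 0 was between 47.8% and 53.1% on each array. On array 2 the ATP synthase median was -0.38 while the medians of complexes II, III and IV were 0.12, 0.11 and 0.10. Complex IV was the lowest of the complexes on array 3, at 0.19, where complex II stood at 1.26. The median SD between arrays was 0.43 for the members and 0.35 for all genes, and 31 of 40 members varied more than the median gene.

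**Figure D5:**
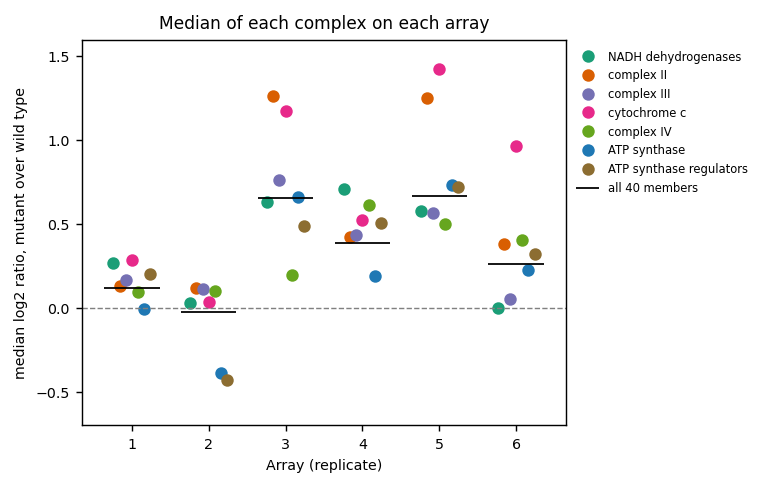
Median log2 ratio of mutant over wild type (vertical axis) of each complex on arrays 1 to 6 (horizontal axis). Coloured points are the complexes and black bars the median of all 40 members, which runs from -0.025 on array 2 to 0.67 on array 5.

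The transcription factors known to control these genes did not pass the test. HAP4, the glucose-repressed activating subunit of the CCAAT-binding complex, stood at 0.19 ± 0.19 (95% interval -0.080 to 0.46; limma, adjusted p = 0.340). Its DNA-binding partners HAP2, HAP3 and HAP5 stood at 0.010 ± 0.22, 0.076 ± 0.13 and -0.18 ± 0.18. HAP1, the heme-responsive activator, stood at -0.27 ± 0.55, and ROX1, the repressor of hypoxic genes, at 0.064 ± 0.39. MIG1, a repressor of glucose-repressed genes, had the lowest mean of the 7, at -0.42 ± 0.28, and was below 0 on 5 of 6 arrays (limma, adjusted p = 0.0566, with 0.0486 without array 6 and 0.0180 with array weights).

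Genes that build the complexes had a median of 0.057, beside 0.0053 for all genes tested. Of 51 measured assembly and expression factors for complexes II, III and IV, cytochrome c and the ATP synthase, 1 rose and none (0) fell. Among all genes 9.41% rose and 5.69% fell. The gene that rose was AEP3 (YPL005W), which is required for expression of the mitochondrial genes for ATP synthase subunits. It stood at 0.74 ± 0.19, between 0.52 and 0.99 on all 6 arrays (limma, adjusted p = 0.00241). It passed without each array in turn (highest adjusted p = 0.0123) but not as deposited (0.0903). The medians were 0.19 for 4 complex II factors, 0.13 for 10 complex III factors, 0.011 for 23 complex IV factors, 0.28 for 2 cytochrome c factors and -0.11 for 12 ATP synthase factors. The complex IV associated genes RCF1 and RCF2 stood at -0.32 ± 0.43 and 0.083 ± 0.43, and neither passed.

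Ubiquinone (coenzyme Q) and heme are among the cofactors of the chain. None (0) of 11 coenzyme Q synthesis genes passed (median 0.13). Of 8 heme synthesis genes 2 fell and none (0) rose (median -0.024), where 5.69% of all genes fell and 9.41% rose. HEM14 (YER014W), protoporphyrinogen oxidase, stood at -0.84, -1.33, -1.05, -1.06, -1.15 and -0.67 on arrays 1 to 6. All 6 values were below -0.6, and HEM14 fell by 1.02 ± 0.23 on the log2 scale (limma, adjusted p = 0.000467), a call kept without each array but not as deposited (0.0685). HEM13, coproporphyrinogen oxidase, which needs oxygen and is induced at low oxygen, fell by 0.43 ± 0.23 (limma, adjusted p = 0.0438). That call was lost as deposited, with equal array spread, with array weights and without any of arrays 2 to 6 (adjusted p between 0.0573 and 0.142).

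Of 11 citric acid cycle genes other than SDH, 1 rose and none (0) fell, where 9.41% and 5.69% of all genes did. The gene that rose was KGD1 (0.48 ± 0.27; limma, adjusted p = 0.0326, lost without array 1, 3, 5 or 6 and as deposited). The median of the 11 was 0.24, and by array it was -0.00039, -0.36, 0.65, 0.14, 0.45 and 0.17, lowest on array 2 and highest on array 3. Of 5 carrier and porin genes (AAC1, PET9, AAC3, MIR1 and POR1) none (0) passed, with a median of 0.014. Of 5 other redox genes (DLD1, CYB2, GUT2, URA1 and CYB5), GUT2 rose and URA1 fell, where 9.41% of all genes rose and 5.69% fell. DLD1, CYB2 and CYB5 stood at -0.23, 0.25 and -0.11 and did not pass. GUT2 (YIL155C), the mitochondrial glycerol 3-phosphate dehydrogenase that feeds electrons from cytosolic NADH to ubiquinone by another route than NDE1, stood at 0.82, 1.38, 2.02, 1.43, 1.95 and 1.04. Its lowest array was close to the mean of NDE1, and its mean of 1.44 ± 0.48 passed also as deposited (limma, adjusted p = 0.000265 centred and 7.1e-05 as deposited). URA1, the cytosolic dihydroorotate dehydrogenase of pyrimidine synthesis, fell by 0.93 ± 0.74 (limma, adjusted p = 0.0149), a call lost without array 3 or 5 and as deposited.

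The genes next to the 9 called members on the chromosome, in the order of the R64 gene table, were looked up to see whether they carried the same values. Of 18 neighbours 17 were measured, with a median of 0.0076. Of these, 3 passed as higher and 1 as lower, where 9.41% and 5.69% of all genes did. The 3 were AVT3 next to SDH1 (0.84), MSG5 next to COX5A (0.68) and APA2 next to QCR7 (0.48). The gene that passed as lower was RPL21B, a ribosomal protein gene next to ATP4, at -0.66. The measured neighbours of NDE1, SDH2, CYC1, COX8 and ATP1 did not pass.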

How the data were processed

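Per the labels, each of the 6 columns is 1 two-colour array, mutant in Cy3 and wild type in Cy5. The deposited values are log ratios for 13056 spots, taken as log2; for the authors' scanner, background correction and normalization the sources used here say nothing. They ran from -3.57 to 5.32 with array medians of -0.95 to 0.92. Exact zeros (134, none (0) at member spots) were set to missing. Through the platform annotation 11138 spots carry 1 symbol and 1918 none. Each array was centred on its median over all spots and spots were averaged per gene. A value on at least 4 arrays was required, which removed 0 genes.

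Gene means were set against 0 by an intercept fit with moderated errors (R 4.3.3, limma 3.58.1, lmFit and eBayes), two-sided, with Benjamini-Hochberg adjustment over all 5539 genes at 0.05. Intervals are limma's 95% intervals, and for isoform differences those of the t distribution. The 3 isoform pairs and MET4 were tested over 64 sign patterns. The fit was also run on simulated data with 200 of 5539 genes changed, drawn as independent normal noise with the SD of each gene. It recovered 35.8% of changes of 0.5, 89.6% of 1 and 100% of 2, and 8 of 158 calls were false. The simulated arrays shared no noise, which the real arrays may, so these rates need not hold here.

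Members, the 13 other lists and the rule for named genes (all members, MET4, 7 regulators, and up to 4 genes past the threshold per list; the neighbours and other named genes were chosen after values were seen) were chosen with earlier results of these data known. Alternatives were the values as deposited, equal array spread, quantile normalization, centring of 48 print-order runs, complete values, spot medians, zeros kept, robust empirical Bayes, array weights and leaving out each array, with averaged arrays added after seeing the data. The number of arrays limits the precision. Other columns of sample values numbered 0.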

Additional observations from a re-analysis of the deposited data

Results flagged for a closer look

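Each member and MET4 (41 genes) was checked for 1 array far from the other 5, and 2 had one, where chance gives about 1 in 20. NDE1 was at 1.39 on array 4, against 0.88 for the next highest array, and its call held without that array (limma, adjusted p = 0.00467). STF2 was at -0.59 on array 2, against 0.23 for the next lowest, and its mean was 0.49 without array 2.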

How the results depend on the processing

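The count of members called higher, 9, was 5 as deposited, 2 with arrays averaged in pairs (chosen after seeing the data) and 5 to 15 when 1 array was left out. No alternative called a member lower (0), and 34 to 40 of 40 member means were above 0. The 40 of 40 came from the values as deposited, where the median over all genes was itself 0.12. In the main fit 35 of 40 members and 2810 of all 5539 genes had means above 0. By complex, averaging in pairs gave 0 for complexes II, III and IV and the ATP synthase, and the values as deposited gave 0 for complex IV and the ATP synthase. Centring by print-order run gave 2 NADH dehydrogenases, 3 complex III and 1 ATP synthase gene, and equal spread, quantile normalization and array weights each gave 2 in complex III. In these 4 settings 9.14%, 9.51%, 10.5% and 11.7% of all genes were called higher, in the same order. With 1 array left out the counts ran from 1 to 2 for complex II, 1 to 4 for complex III, 1 to 2 for cytochrome c, 0 to 2 for complex IV, 1 to 3 for the ATP synthase and 0 to 1 for its regulators. The medians moved by less than their SD between arrays throughout, a limit that leaving out 1 of 6 arrays could hardly exceed. Centring by print-order run brought NDE1 minus NDE2 (0.70) and COX5A minus COX5B (0.52) past the threshold, and MET4 (-0.47 as deposited) lost its call without centring. The causes were not tested. Over 16 alternatives, the 15 named genes past the threshold gave 240 values, of which 191 passed again, 49 did not and 0 changed sign. The 38 not past it gave 608, of which 17 passed and 26 changed sign. Complete values, spot medians and zeros kept left the members' means the same or nearly so. These counts are therefore not independent checks. With 5 arrays the smallest exact p is 0.0625, so no isoform difference could pass there. Each ratio already sets mutant against wild type on 1 array, and the isoform differences were taken within arrays. The labels give no pairing between the 6 arrays, which form 1 group. Without channel intensities, dim spots could not be told from bright ones.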
